A study of Mus musculus with 586 samples.

Results

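The genes described here build and drive motile cilia, the beating cell projections that include the cilia of the embryonic node. They were taken by symbol from 18 tables of gene expression, 1 per mouse embryo, as the intraflagellar transport genes (Ift followed by a number, 13 genes), the radial spoke genes (Rsph followed by a number, 6 genes) and 10 single genes, namely Foxj1, Rfx2, Rfx3, Pkd2, Ccdc39, Ccdc40, Mns1, Arl13b, Kif3a and Dnali1. This gave 29 genes of 23361. Pkd1l1 and heavy chains under the symbol Dnah were not analysed here, and 11 axonemal dynein heavy chains listed under the older prefix Dnahc were counted among the other genes.

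The embryonic node is a pit at the distal tip of the mouse embryo, at the front end of the primitive streak. Its cells each carry a single cilium, and those in the pit rotate and drive a leftward flow that sets left-right asymmetry. Foxj1, a forkhead transcription factor, turns on the genes of the motile axoneme, and the factors of the Rfx family bind X-box motifs in ciliary genes. Intraflagellar transport carries building blocks along the cilium in motile and immotile cilia alike, whereas radial spokes and the dynein-spacing ruler are known from beating axonemes. RNA of a spoke gene does not show that node cilia carry spokes.

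The libraries were Geo-seq profiles, in which small groups of cells are cut by laser from cryosections and their RNA is sequenced. All embryos were C57BL/6, with no treatment or genotype contrast in the labels, and had 5 ages in days of gestation. Of 586 samples, 473 could be tied to a column: 22 from 2 embryos at E5.5, 22 from 2 at E6.0, 109 from 6 at E6.5, 101 from 2 at E7.0 and 219 from 6 at E7.5. Region codes were read as A for the anterior and P for the posterior side of the epiblast with the streak, L for left and R for right, M, MA and MP for mesoderm and EA and EP for endoderm, and section 1 was read as the distal tip. P libraries could be used in 6 embryos at the later stages, namely E7.0 embryos 1 and 2 and E7.5 embryos 3 to 6. The P, L and R columns of E7.5 embryos 1 and 2 and the L and R columns of embryos 4 to 6 were not used, so E7.5 embryos 1 and 2 gave A libraries alone.

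Values were FPKM, fragments scaled to transcript length and library size, which can be compared between genes. The 320 libraries of E7.0 and E7.5 listed 4140 to 11319 genes at 1 FPKM or more, and 26 of all 473 listed under 5000 or had over 50% of their FPKM in 1 gene. A single read of Foxj1 was worth about 0.124 FPKM in the median library of these stages and 0.0187 to 0.48 FPKM across them, by a rough estimate from genes with 1 annotated transcript. Each embryo had its own table, so tests were made on differences within an embryo and levels across embryos are descriptions. In bulk samples such as these, fewer ciliated cells and less RNA per cell cannot be told apart. Markers set some layers apart and not others. The summed FPKM of 6 visceral endoderm markers was 2077 to 4366 in the endoderm of 4 embryos of E7.0 and E7.5. In P of 6 embryos it was 67.2 to 276. Mesoderm markers overlapped, at 52.1 to 365 FPKM in mesoderm of 4 embryos and 28.3 to 397 FPKM in P. Epiblast markers stood at 13.2 to 32.4 FPKM in mesoderm, 7.82 to 25.4 FPKM in endoderm and 7.52 to 47.9 FPKM in P. Endoderm also held 1171 to 10584 FPKM of decidua and blood markers against 36.2 to 858 FPKM in P. Its trophoblast markers stood at 197 to 408 against 4.64 to 19.9 FPKM. What part this had in the differences was not tested.

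The set split into genes found nearly everywhere and genes found in few libraries. Ift43 (mean 35.0 FPKM over the 473 libraries), Ift20 (31.2 FPKM) and Ift27 (27.9 FPKM), all subunits of the transport trains, were the highest, followed by Mns1 (16.9 FPKM), a protein inside the axoneme's microtubule doublets, and Ift74 (11.1 FPKM). Each of these 5 was above 0 in at least 93.4% of libraries. Foxj1 was above 0 in 51.2% of libraries, Rsph9 in 36.8%, Rsph4a in 32.6%, and the axonemal dynein light intermediate chain Dnali1 in 13.3%. Rsph6a, a radial spoke gene known from sperm, never exceeded 1.16 FPKM.

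Foxj1 was low before E7.0 and reached its highest values in a few distal libraries afterwards. Its highest level was 4.68 FPKM at E5.5, 1.04 FPKM at E6.0 and 2.91 FPKM at E6.5, and no library of these stages reached 10 FPKM. At E7.0 its highest level was 113 FPKM and at E7.5 247 FPKM, while the median library stayed at 0.172 and 0.114 FPKM. Libraries of at least 10 FPKM numbered 8 of 101 at E7.0 and 6 of 219 at E7.5.

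Along the P side Foxj1 was high near the tip and low or listed at 0 farther up. In E7.0 embryo 1 its FPKM from section 1 to section 6 ran 9.74, 17.6, 8.67, 3.07, 2.34 and 0.102. In E7.0 embryo 2 it ran 109, 55.8, 5.30, 0.859, 0.244 and 0. In E7.5 embryo 4 it ran 32.8, 4.83, 0.435, 0.348, 0.633 and 0. Sections 1 of E7.5 embryos 3, 5 and 6 held 8.83, 12.8 and 9.06 FPKM, and sections 2 held 3.25, 1.20 and 0.296 FPKM. In 5 of the 6 embryos section 1 was the highest P library, and in E7.0 embryo 1 it was section 2.

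**Figure D1:**
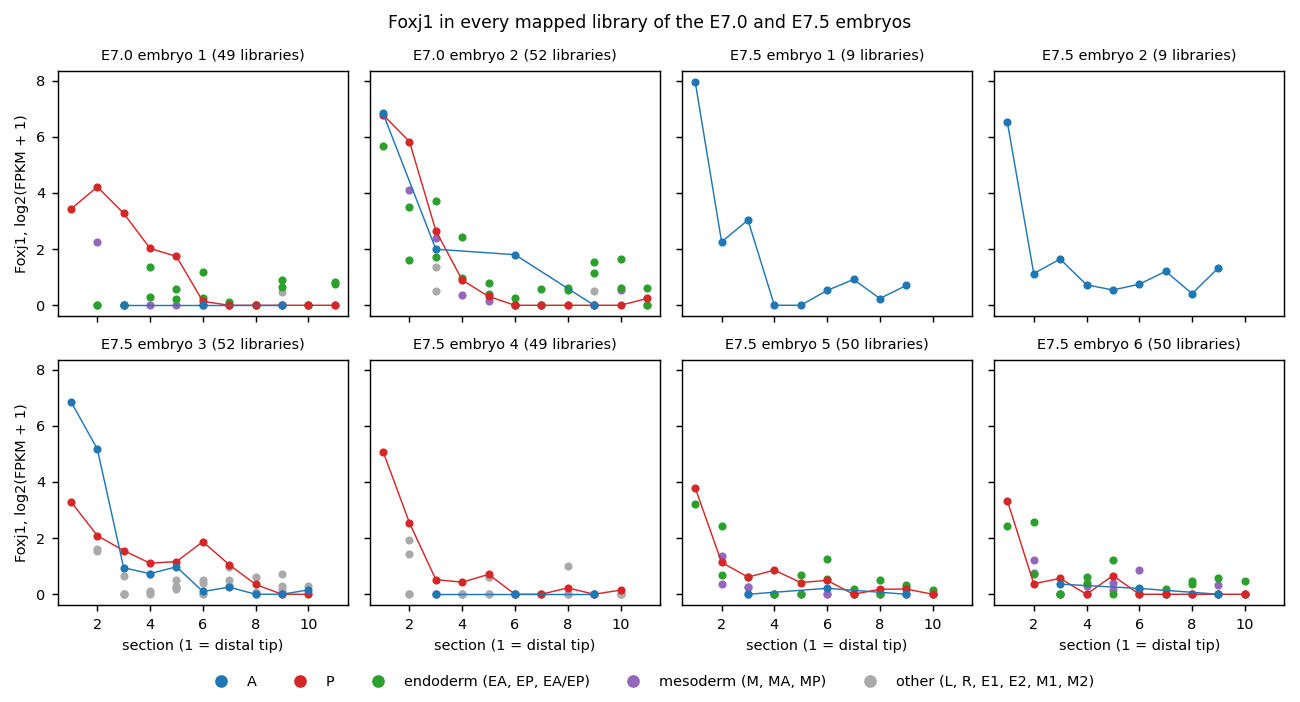
Foxj1 as log2(FPKM + 1) (vertical axis) by section number from the distal tip (horizontal axis) in each E7.0 and E7.5 embryo, 1 point per library and colours for regions, with lines joining the A and the P libraries. The highest point of each embryo lies in section 1 of A or P, or in section 2 of P in E7.0 embryo 1, up to 247 FPKM in section 1 of A of E7.5 embryo 1.

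The distal part of the P side was compared with its proximal part, as sections 1 to 4 against sections 5 and above in the same embryo, on log2(FPKM + 1), which understates changes of genes at low FPKM. The embryo means of Foxj1 were 9.77 and 42.8 FPKM in distal P at E7.0 and 3.79, 9.61, 3.84 and 2.46 FPKM at E7.5, against 0.061 to 0.875 FPKM in proximal P. The ranges did not overlap. Foxj1 was higher in distal P by 2.43 ± 0.45 (log2, SE, limma, 6 embryos, stages weighted equally, adjusted p = 2.13e-05) and in 6 of 6 embryos. It entered the test through its distal libraries alone, since its proximal P mean reached no more than 0.323 FPKM at either stage against the filter of 1 FPKM, and its adjusted p was 0.106 with a filter at 0.1 FPKM and 0.236 with none. An exact two-sided sign-flip permutation test over the 6 embryos gave p = 0.0312, the smallest that 6 embryos allow.

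Of the 29 genes, 25 were tested in this comparison and 6 passed at an adjusted p of 0.05, all of them higher distally, where 4.42% of the 10017 genes tested were called in either direction and 1.58% were called higher. The 6 were Foxj1, Rfx3, Rsph1, Rsph4a, Rsph9 and Ccdc39. Foxj1 and Rsph4a passed the filter on low values only through distal P, where they were high, so the count of 6 is a description and not support for a difference of the set. The median difference of the 25 was 0.51 and that of all genes tested -0.17 (log2), also as a description. Rfx2, Dnali1, Ift140 and Rsph6a were too low for the test. In the estimate for E7.0, 5 of the 25 passed, all higher (Foxj1, Rfx3, Rsph4a, Rsph9 and Ccdc39), where 2.21% of all genes were called and 1.47% were called higher. In the estimate for E7.5 none passed by limma, where 2.43% of all genes were called and 0.0699% were called higher, and 4 members had an unadjusted p under 0.05 (Foxj1, Rsph1 and Rsph4a higher and Ift43 lower). Of all 10017 genes tested, 2748 had an unadjusted p under 0.05 at E7.5, so these 4 do not stand out by number. The change from E7.0 to E7.5 passed for Rsph9 alone (-2.64 ± 0.73, adjusted p = 0.046, 0.689% of all genes called).

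These calls were sensitive to single embryos and to scaling. Without E7.0 embryo 1, E7.0 embryo 2 or E7.5 embryo 5, the 6 called genes became 2, 1 and 2, Foxj1 itself missing the threshold without E7.0 embryo 2 (adjusted p = 0.0665), and none was called after scaling libraries to equal FPKM sums (adjusted p of Foxj1 = 0.0534) or with a lower filter on low values. The loss was not particular to the members. Calls among all genes fell from 443 to 95, 82 and 113 without these embryos, and to 0 with equal sums or a lower filter.

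Rfx3, which is needed for normal cilia in the node, had embryo means in distal P of 5.63 and 16.1 FPKM at E7.0 and 2.48, 3.68, 3.38 and 6.55 FPKM at E7.5, against 1.38 to 3.96 FPKM in proximal P. These ranges overlapped, and E7.5 embryo 3 went the other way. Rfx3 was higher in distal P by 0.97 ± 0.29 (log2, SE, adjusted p = 0.0246). Rfx2, a second activator of ciliary genes, was low: its distal P means were 1.55 and 1.63 FPKM at E7.0 and 0.160 to 0.996 FPKM at E7.5, against 0.104 to 0.349 FPKM in proximal P, with no test.

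Radial spokes connect the outer doublets with the central pair of the axoneme. Of their 5 tested genes 3 were called, where 1.58% of all genes tested were called higher. Rsph4a, 1 of the 3, entered the test through distal P alone and Rsph6a was too low for it, so the count is a description. Rsph9, a spoke head protein, had embryo means in distal P of 17.9 and 30.4 FPKM at E7.0 and 0.972, 32.7, 9.63 and 2.69 FPKM at E7.5, against 0.203 to 2.98 FPKM in proximal P. It was higher by 1.92 ± 0.37 (log2, SE, adjusted p = 4.84e-05) and in 5 of 6 embryos, E7.5 embryo 3 being the exception. In E7.5 embryo 4 the gene stood at 121 FPKM in P section 1 and at 6.43 FPKM in section 2.

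Rsph4a, another spoke head protein, had distal P means of 4.43, 9.69, 0.601, 5.01, 2.83 and 0.557 FPKM in the 6 embryos and proximal P means of 0 to 0.423 FPKM. The difference was 1.28 ± 0.33 (log2, SE, adjusted p = 0.00653), above 0 in 6 of 6 embryos. The gene entered the test through distal P alone (proximal P mean of at most 0.262 FPKM at a stage), and its adjusted p was 0.153 with a filter at 0.1 FPKM and 0.269 with none. Rsph1, a further spoke head component, had distal P means of 6.73, 17.9, 2.13, 14.1, 7.01 and 2.44 FPKM and proximal P means of 0.104 to 3.23 FPKM. It was higher by 1.16 ± 0.32 (log2, SE, adjusted p = 0.0141) in 5 of 6 embryos. Rsph3a and Rsph3b, near-identical copies on chromosome 17 whose reads may be split between them, differed by 0.54 ± 0.25 and 0.51 ± 0.24 and did not pass (adjusted p = 0.197 and 0.209).

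Ccdc39 and Ccdc40 form the ruler that spaces inner dynein arms along the doublets. Ccdc39 had distal P means of 5.69, 13.8, 0.733, 11.6, 1.24 and 2.54 FPKM, against 0.583 to 2.30 FPKM in proximal P, so that 3 embryos (both at E7.0 and E7.5 embryo 4) were higher and 3 differed little. It was higher by 1.10 ± 0.30 (log2, SE, adjusted p = 0.0139). Ccdc40 differed by 0.83 ± 0.28 without passing (adjusted p = 0.0607). Mns1 stood at 31.8 ± 16.6 FPKM (SD, n = 6) in distal and 22.6 ± 5.03 FPKM in proximal P, a difference that did not pass (adjusted p = 0.26). Dnali1 was listed at 0 in nearly all proximal P libraries (embryo means of 0 to 0.0129 FPKM) and at 0.128 to 1.67 FPKM in distal P.

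The transport genes were present on both parts of the P side, and none of the 12 tested passed. Ift57, Ift81, Ift74 and Ift46, all of complex B that moves cargo toward the tip, differed by 0.73 ± 0.27, 0.85 ± 0.29, 0.58 ± 0.25 and 0.51 ± 0.25 (adjusted p = 0.0905, 0.0624, 0.162 and 0.22). Ift122, of complex A that serves the return, differed by 0.73 ± 0.28 (adjusted p = 0.102), and Ift43 by -0.24 ± 0.20. The differences of all 10 complex B genes were above 0, from 0.02 for Ift20 to 0.85 for Ift81. Kif3a, a subunit of the motor that carries the trains outward, and Arl13b, a small GTPase of the ciliary membrane, differed by 0.30 ± 0.23 and 0.26 ± 0.23 (adjusted p = 0.444 and 0.52).

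Pkd2, the calcium channel by which node cells are thought to sense flow, had 2.85 ± 1.03 FPKM in distal and 3.18 ± 1.11 FPKM in proximal P (SD, n = 6), a difference of -0.10 ± 0.20 (log2, SE, adjusted p = 0.784), and 3 of 6 embryos were higher.

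**Figure D2:**
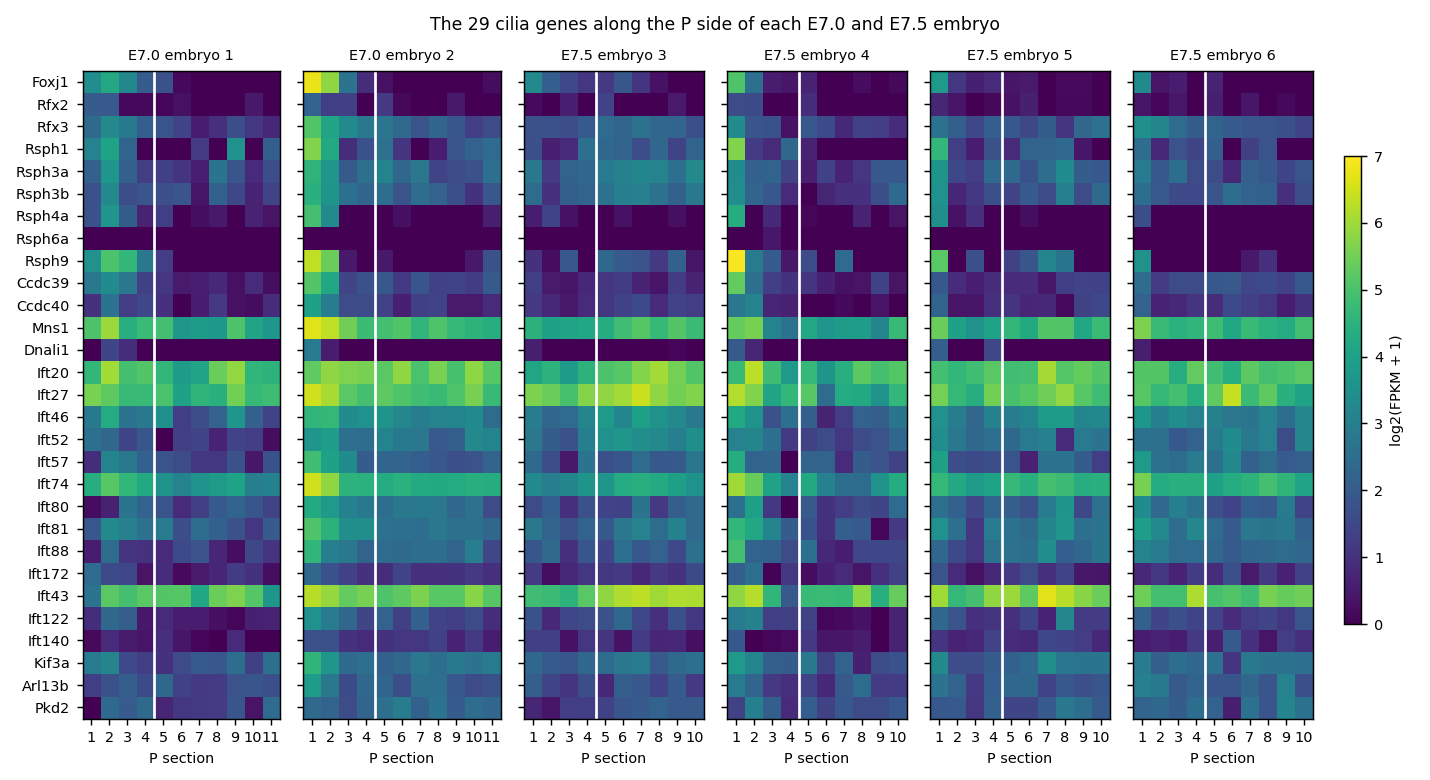
The 29 genes (rows) in every P library (columns, section 1 at the left) of the 6 embryos, coloured by log2(FPKM + 1), with a white line between sections 4 and 5. Foxj1, Rsph9, Rsph4a and Rsph1 brighten in the first 1 to 3 sections, Ift20, Ift27, Ift43, Mns1 and Ift74 are bright throughout, and Pkd2 shows no such edge.

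**Figure D3:**
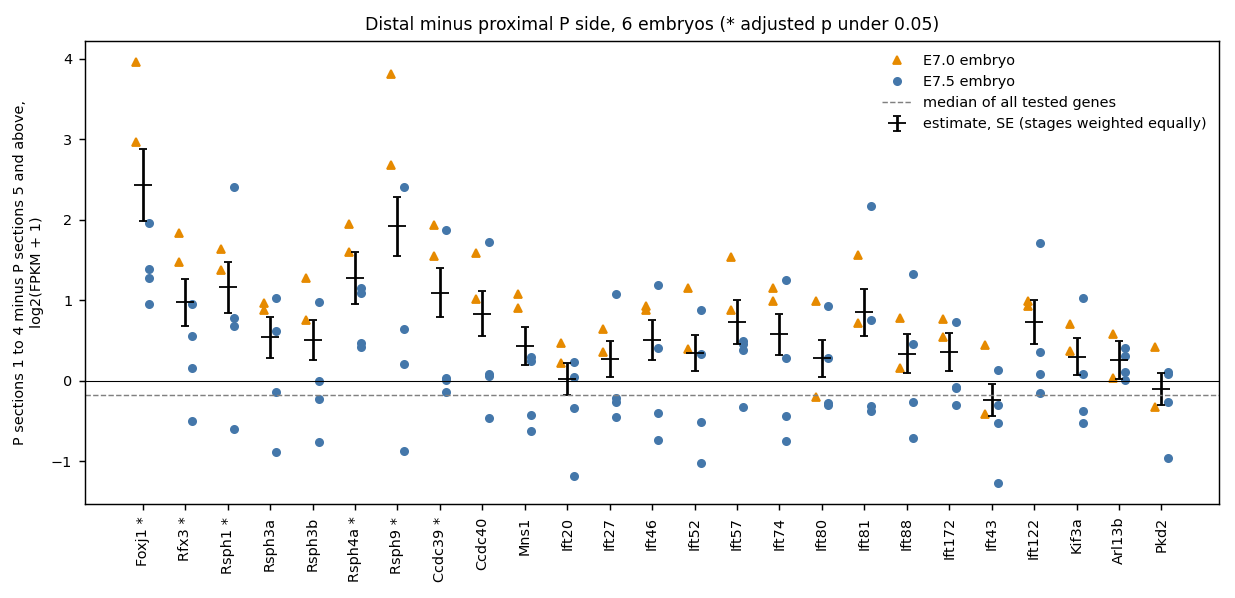
Difference between P sections 1 to 4 and P sections 5 and above in log2(FPKM + 1) (vertical axis) for the 25 tested genes, with 1 point per embryo, the estimate and its SE in black and the median of all genes dashed. The 6 starred genes passed the threshold, and the E7.0 embryos (triangles) lie above most E7.5 embryos (circles) in them.

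The tip section was also left out, an alternative chosen after seeing the data. Then 2 members passed, Foxj1 at 1.82 and Rsph9 at 1.26 (log2, adjusted p = 0.00216 and 0.0129), and Rsph1, Rsph4a, Rfx3 and Ccdc39 stood at 0.60 to 0.79. Section 1 of P and of A were looked at together in all 8 embryos of E7.0 and E7.5, where 10 such libraries could be used. Section 1 of A held node markers in all 4 embryos that had it. Noto, a homeobox gene of the node and notochord, stood there at 147, 674, 183 and 107 FPKM in E7.0 embryo 2 and E7.5 embryos 1, 2 and 3, and Chrd, a BMP antagonist made by the node, at 160, 76.4, 12.8 and 43.9 FPKM. In section 1 of P, Noto was lower in E7.5 embryos 3 and 6 (1.87 and 0.927 FPKM) than in E7.0 embryos 1 and 2 (13.4 and 177 FPKM) and E7.5 embryos 4 and 5 (69.4 and 34.3 FPKM).

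Foxj1 was highest of all libraries of its embryo in section 1 of A or P in 7 of 8 embryos. In section 1 of A it reached 113 FPKM in E7.0 embryo 2 and 247, 90.9 and 115 FPKM in E7.5 embryos 1, 2 and 3, whereas the highest libraries outside section 1 of A and P held 55.8, 7.19, 2.13 and 35.0 FPKM in these embryos. Rsph9 stood in the same 4 libraries at 83.6, 179, 60.1 and 71.4 FPKM, and elsewhere at no more than 42.4, 6.86, 7.56 and 26.8 FPKM. In E7.5 embryo 3, which had both sides, the tip of A was above the tip of P, with Foxj1 at 115 against 8.83 FPKM. In E7.0 embryo 2 both were alike, at 113 and 109 FPKM.

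Of the 29 genes, 19 had their highest library in section 1 of A or P in at least 5 of 8 embryos, against 1.71% of all 23361 genes. Foxj1, Rsph1, Rsph9 and Ift57 had it in 7 of 8 embryos, against 0.39% of all genes. Ccdc39, Ccdc40, Dnali1, Rfx3, Rsph3a, Rsph3b, Rsph4a, Ift74, Ift81 and Ift172 had it in 6. Ift20 and Ift43 had it in 2 embryos, and Pkd2 and Rsph6a in none. These counts carry no test. Of the 23 members with a mean of at least 1 FPKM, 15 had it in at least 5 embryos as deposited, 17 with equal sums and 19 with equal medians, against 1.88%, 2.30% and 2.85% of 9803 genes. The members with it in at least 7 embryos were 4 as deposited, 0 with equal sums and 7 with equal medians, and the count for Foxj1 was 7, 5 and 7 embryos. In section 1 of P of E7.5 embryo 6 a small RNA gene, Scarna3b, held 71.9% of the FPKM sum, and equal sums lower every other gene there. E7.5 embryos 1 and 2 had 8 other libraries each, all of A, against 48 to 50 in the other embryos. Section 1 was therefore more readily the highest in these 2. Libraries of section 1 of A and P listed a median of 9797.5 genes at 1 FPKM or more, and the other libraries 8998.

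**Figure D4:**
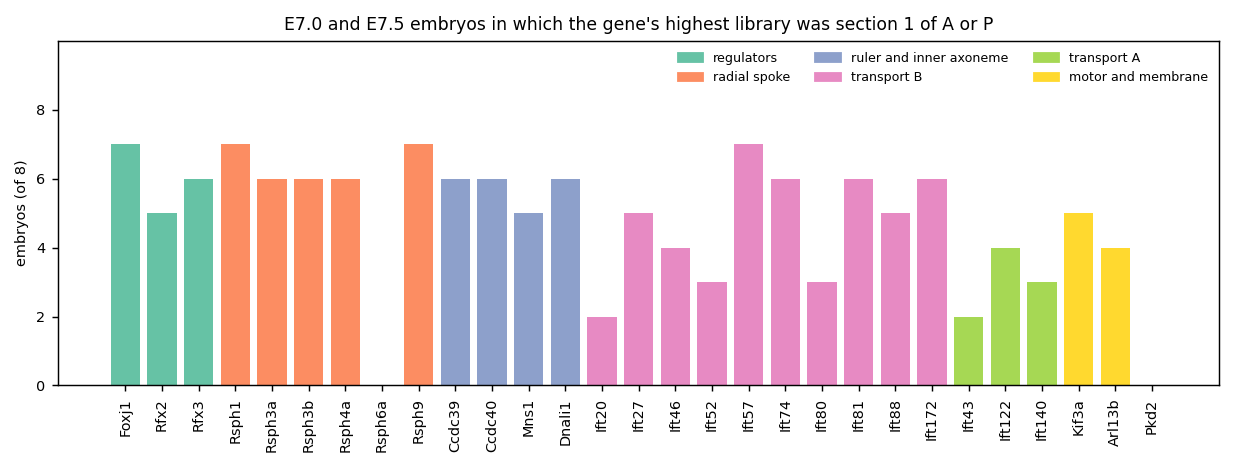
Number of the 8 E7.0 and E7.5 embryos (vertical axis) in which each gene (horizontal axis) had its highest library in section 1 of A or P, with bars coloured by class. Foxj1, Rsph1, Rsph9 and Ift57 reach 7, and Pkd2 and Rsph6a have no bar.

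Set against all other libraries of the same embryo, 10 of 24 tested members were higher in distal P and none lower, where 1.78% of 10003 genes were called and 1.5% were called higher. The median member differed by 0.99 and the median gene by 0.15 (log2). Both comparisons share the distal P libraries. The 10 were Foxj1 (2.17 ± 0.41), Rsph9 (1.82 ± 0.42), Rsph1 (1.47 ± 0.37), Rfx3 (1.44 ± 0.33), Ift81 (1.40 ± 0.36), Ift74 (1.34 ± 0.34), Ccdc39 (1.19 ± 0.32), Rsph4a (1.17 ± 0.29), Ift57 (1.14 ± 0.31) and Mns1 (1.10 ± 0.29) (log2, SE), with adjusted p from 0.00873 to 0.0493. Of these, Rsph4a entered the test through distal P alone.

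Ift57 had embryo means of 4.56, 13.9, 3.04, 6.72, 5.31 and 7.17 FPKM in distal P and of 1.44, 3.90, 2.64, 1.14, 2.44 and 2.58 FPKM in the other libraries. It was higher in 6 of 6 embryos, although the ranges overlapped. Mns1 was higher in 5 of 6 embryos, E7.5 embryo 3 being lower. Leaving out E7.0 embryo 1 or 2 gave 0 or 1 calls, and leaving out E7.5 embryo 3, 4, 5 or 6 gave 21, 17, 1 or 1. None was left after scaling to equal sums or equal medians.

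Within the endoderm no member passed between distal and proximal sections. Foxj1 had distal means of 0.301 and 11.7 FPKM in E7.0 embryos 1 and 2 and 1.96 and 1.54 FPKM in E7.5 embryos 5 and 6, and proximal means of 0.364, 0.650, 0.293 and 0.264 FPKM, and thus was higher in 3 of 4 embryos. Its difference was 0.85 ± 0.42 (log2, SE, adjusted p = 0.447). None of 21 members passed by limma, where 2.16% of 9970 genes were called, all of them lower, and Foxj1 alone of the members had an unadjusted p under 0.05. Of the 9970 genes, 1079 had an unadjusted p under 0.05. Leaving out E7.0 embryo 1 or 2 gave 1 or 3 member calls. The summed visceral endoderm markers stood at 437 to 854 FPKM in distal and 3033 to 6497 FPKM in proximal endoderm, and their part in the result was not tested. The shared endoderm library of section 1 in E7.0 embryo 2 held 49.7 FPKM of Foxj1.

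Endoderm as a whole had less of these genes than the P side of the same sections, as most genes did. Of 22 tested members, 20 were lower in endoderm, where 77.7% of 10227 genes were called and 66.3% were lower. The median member differed by -0.73 and the median gene by -0.53 (log2). Mns1 had 7.70 ± 4.32 FPKM in endoderm and 22.2 ± 7.28 FPKM in P (SD, n = 6 embryos of E6.5 to E7.5), a difference of -1.74 ± 0.14 (log2, SE, adjusted p = 3.59e-07). Ift27 and Ift74 fell by 1.65 and 1.62 on the log2 scale, lower in 6 of 6 embryos each. Foxj1 had 0.708 ± 0.669 FPKM in endoderm and 1.67 ± 2.55 FPKM in P (SD, n = 6), was higher in endoderm in 4 of 6 embryos and did not pass, at 0.05 ± 0.13 (log2, SE, stages weighted equally). Rsph9 had 1.23 ± 1.39 and 2.32 ± 2.57 FPKM and did not pass, at -0.14 ± 0.15. Endoderm and P libraries differed in depth: at E6.5 the median endoderm library listed 5840 genes at 1 FPKM or more and the median P library 9447, and what part depth had in the differences was not tested.

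Mesoderm was compared with P in the same way. Of 23 tested members, 15 were lower in mesoderm, where 48.3% of 9828 genes were called and 44.7% were lower, with medians of -0.35 for the members and -0.24 for all genes. Rsph1 had 0.579 ± 0.34 FPKM in mesoderm and 2.65 ± 1.21 FPKM in P (SD, n = 4), lower in 4 of 4 embryos, with a difference of -0.81 ± 0.15 (log2, SE, adjusted p = 0.0125). Kif3a, Ift52 and Foxj1 did not pass, at 0.11 ± 0.11, 0.03 ± 0.12 and -0.35 ± 0.13. Equal scaling of sums or of medians left 1 call, and leaving out E7.5 embryo 5 or 6 left 0 or 9.

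**Figure D5:**
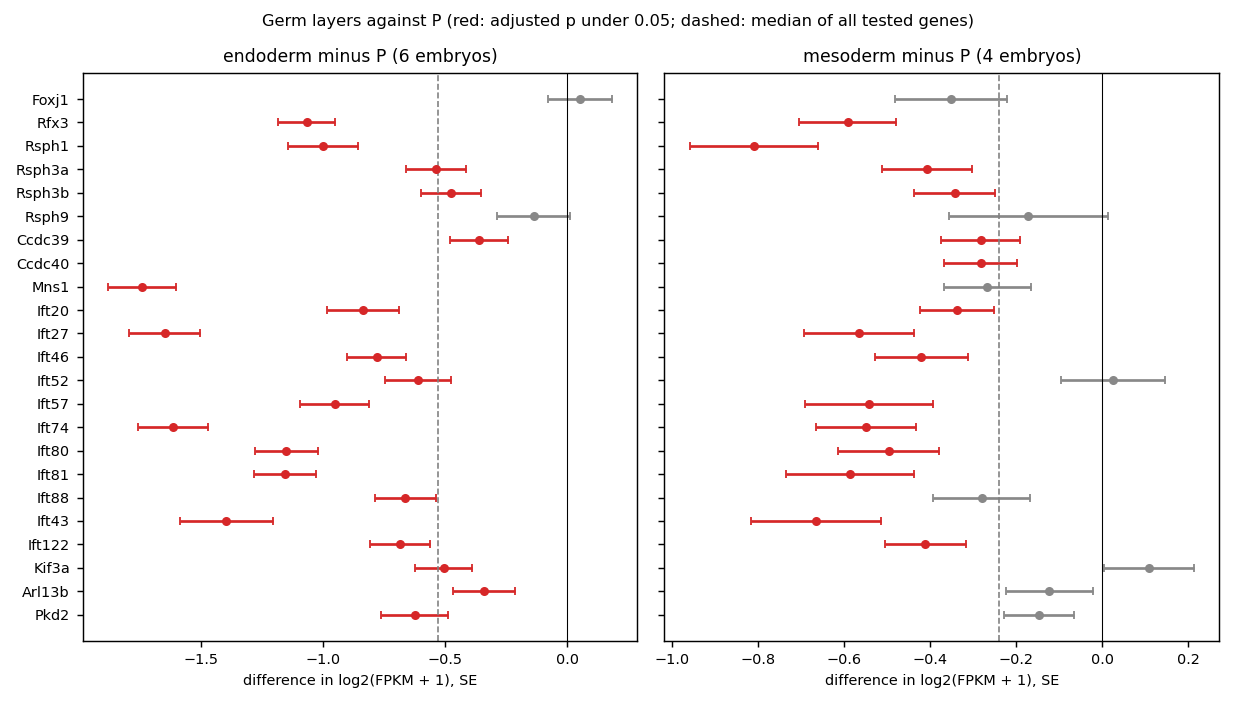
Differences in log2(FPKM + 1) with SE (horizontal axis) of each tested gene (vertical axis) between endoderm and P at the left and mesoderm and P at the right, red where the adjusted p was under 0.05 and with the median of all genes dashed. Most members lie left of 0 on both sides, Mns1, Ift27 and Ift74 lowest in endoderm, and Foxj1 lies near 0 in endoderm.

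Between the P and the A side of the same sections few members differed. Over E6.5, E7.0 and E7.5, with 12 embryos, Kif3a alone of 27 tested members passed, higher in P by 0.36 ± 0.10 (log2, SE, adjusted p = 0.0266) and in 9 of 12 embryos, where 11.1% of 11438 genes were called and 7.02% were called higher. The call was lost without E7.0 embryo 1, E7.5 embryo 3 or E7.5 embryo 5. Rsph1 was lower in P in 10 of 12 embryos, at -0.54 ± 0.19, without passing (adjusted p = 0.087). At E7.5 alone Ift52 and Ift88 were higher in P in 4 of 4 embryos, by 0.76 ± 0.19 and 0.67 ± 0.15 (adjusted p = 0.0116 and 0.00596, 12.9% of all genes called and 9.77% called higher). At E5.5, before the streak forms, Mns1 and Ift27 were higher in P in 2 of 2 embryos, by 1.80 ± 0.20 and 1.51 ± 0.44 (adjusted p = 6.11e-05 and 0.0286, 14.9% of all genes called and 12.1% called higher). The spread behind these p-values was pooled over all stages. Libraries of E5.5 listed a median of 6148.5 genes at 1 FPKM or more, against 9125 at E7.5. With such shares of all genes called at both stages, the calls of these 4 genes mark no trait of the members. Foxj1 differed by 0.20 ± 0.12 over the later stages (adjusted p = 0.327).

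Between the right and the left side no member passed by limma among 22 tested in 3 embryos, and no gene did of 9968 (0% called), nor had any an unadjusted p under 0.05. The fit had 1 residual degree of freedom, and each SE came from genes of like level, not from the gene's own embryos. With spreads set this way it does not show that the sides were alike. Rsph9 had 1.28 ± 1.23 FPKM on the right and 0.694 ± 0.656 FPKM on the left (SD, n = 3), and Pkd2 2.74 ± 0.88 and 3.53 ± 1.42 FPKM.

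Other genes of the cilium were counted by lists of textbook function. Of 39 other axonemal genes, 28 were tested and 21 were higher in distal than in proximal P, with none lower and a median of 1.23 (log2), where 1.58% of all genes tested were called higher and their median was -0.17. Of the 21, 18 had entered the test through distal P alone, so the count is a description. It became 0 with equal sums, with either lower filter and with E7.5 embryos alone, 9 without section 1 and 6 to 22 with 1 embryo left out (11 without E7.0 embryo 1, 6 without E7.0 embryo 2 and 12 without E7.5 embryo 5). With equal sums or a lower filter no gene of any kind was called. Pifo, a ciliary protein, stood at 48.3 ± 36.1 and 0.511 ± 0.178 FPKM (SD, n = 6) and Enkur, a protein inside the doublets, at 21.6 ± 20.7 and 0.300 ± 0.257 FPKM. The differences were 3.28 ± 0.58 and 2.73 ± 0.49 (log2, SE, adjusted p = 9.96e-06 and 1.35e-05), each higher in 6 of 6 embryos. Both are among the 18 that entered the test through distal P alone, with proximal P means of at most 0.581 and 0.369 FPKM at a stage.

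Genes that assemble dyneins in the cytoplasm were called higher in 3 of 12 tested, namely Pih1d2, Zmynd10 and Dnaaf3, beside the same 1.58% of all genes called higher. Other transport genes were called in 2 of 16 (Ttc30b at 1.32 ± 0.33 and Wdr35 at 0.86 ± 0.27). With 1 embryo left out these counts were 0 to 3 and 0 to 3, at 0 for both without E7.0 embryo 2 or E7.5 embryo 5 and at 0 and 1 without E7.0 embryo 1, and none of either list was called with equal sums or a lower filter. Of 4 tested regulators besides the members, Ccno and Noto were higher. Zmynd10, Ttc30b and Noto had entered the test through distal P alone. Of 9 tested genes of left-right patterning none was higher, and Lefty2, a Nodal antagonist, was lower (-1.64 ± 0.26, adjusted p = 1.72e-06), although 2 of 6 embryos were higher, where 4.42% of all genes were called in either direction. No gene of any list, and no other gene, was called with equal sums or a lower filter. Of the 11 Dnahc heavy chains, a list added after the tables were seen, Dnahc11 alone was high enough to test, at 1.31 ± 0.65 and 1.07 ± 0.447 FPKM, and did not pass (adjusted p = 0.754). Dnahc5, an outer arm chain, reached 5.86 FPKM in section 1.

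Markers of other cell types moved along the P side too. Of 7 listed node genes 6 were tested and 4 were higher in distal P, 1 of them Foxj1 itself. The others were Noto, Foxa2 and Chrd, by 2.23 ± 0.41, 2.25 ± 0.42 and 2.65 ± 0.46 (log2, SE, limma, adjusted p = 2.13e-05, 2.89e-05 and 9.79e-06). T was not higher (-0.45 ± 0.20, adjusted p = 0.166), and Shh and Nog were not among those called. All 5 mesoderm markers were lower, Mesp1 by -3.18 ± 0.50 (adjusted p = 1.72e-06), and 3 of 3 tested definitive endoderm markers of 4 listed were higher (Foxa1, Cer1 and Trh). Of all genes, 2.85% were called lower and 1.58% higher. Foxa1, Cer1 and Noto entered the test through distal P alone, with proximal P means of at most 0.245, 0.566 and 0.107 FPKM at a stage. Of the streak markers 3 of 5 were lower (median -0.72), of the epiblast markers 2 of 5 were higher (median 0.76), of the visceral endoderm markers 1 of 5 tested was lower, of the trophoblast markers 1 of 2 tested was lower, and of the decidua and blood markers 0 of 3 tested passed. Summed over its genes the streak list stood at 82.5 to 1040 FPKM per embryo in distal P and at 325 to 908 FPKM in proximal P, the epiblast list at 5.91 to 86.0 and 7.58 to 26.2 FPKM, and the visceral endoderm list at 71.9 to 222 and 64.6 to 312 FPKM. The mesoderm list stood at 4.66 to 139 FPKM per embryo in distal P and at 30.2 to 544 FPKM in proximal P, and the definitive endoderm list at 12.7 to 280 and 8.10 to 41.0 FPKM. The node list, which holds T, stood at 107 to 893 and 126 to 741 FPKM. No marker of the mesoderm, definitive endoderm and node lists was at 0 in all distal or all proximal P libraries, and their part in the members' differences was not tested.

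The likeness of other genes to Foxj1 was described over the 201 libraries of E7.5 embryos 3 to 6, by Pearson correlation of log2(FPKM + 1). These libraries share embryos and the scaling of their tables. Among genes with a mean of at least 1 FPKM the 10 most alike were Dnajb13 (r = 0.853), 1700028P14Rik (0.841), Fam183b (0.802), Noto (0.802), 1110017D15Rik (0.791), 1700009P17Rik (0.789), Dynlrb2 (0.781), Enkur (0.775), Tekt1 (0.775) and Ndrg1 (0.739). Over the 101 libraries of E7.0 the same 10 had r from 0.773 (Fam183b) to 0.904 (Noto), and without section 1 at E7.5 from 0.524 (Tekt1) to 0.664 (Dnajb13).

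Members ranked below these genes. Rsph4a had r = 0.697 with Foxj1 at E7.5, Dnali1 0.663, Rsph9 0.588, Ccdc39 0.558 and Rsph1 0.523. The transport genes lay between 0.0874 for Ift20 and 0.422 for Ift122, and Pkd2 had 0.0145. At E7.0 the order was led by Ccdc39 (0.811), Rsph9 (0.794), Rsph4a (0.779) and Rfx3 (0.736). Without section 1 no member exceeded 0.368 (Rsph4a) at E7.5.

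Since many members were highest together at the tip, the 250 bases before each gene's RefSeq start were searched for the motif of Rfx factors, in RefSeq promoter windows of GRCm38.p6. Windows were found for 23 of the 29 genes, and not for Foxj1, Rsph1, Rsph4a, Ift81, Ift80 and Ift122. The half-site GTTGCC, on either strand, lay in 7 of the 23 (Arl13b, Ift140, Ift27, Ift57, Kif3a, Mns1 and Rfx2), or 30.4%, and in 10.4% of all 32851 windows. The full X-box, searched on both strands as GTNNCC, 1 to 3 bases and GGNNAC, which can overlap the half-site, lay in Ift57 alone (4.35%) and in 2.92% of all windows. The forkhead motif TGTTTA lay in Ift43 and Ift88 (8.70%) and in 12% of all windows. GENCODE vM21 puts some starts farther upstream: 13 of the 23 windows hold bases inside the gene as GENCODE has it, 5 of them more than 30 bases, and those of Mns1, Ift46 and Rsph3b lie wholly inside. A match is a run of letters and not a shown site.

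Below are the windows of Ift57, with 2 X-boxes, and of Rsph9 and Ccdc39, which were among the genes called on the distal P side and had neither. All are written 5′ to 3′ on the strand of the gene, with X-box matches in capitals, and that of Ift57 is cut 30 bases after its GENCODE start. They lie at chr16:49699044-49699262 (plus strand), chr17:46144201-46144450 (minus) and chr3:33844311-33844560 (minus).
Ift57: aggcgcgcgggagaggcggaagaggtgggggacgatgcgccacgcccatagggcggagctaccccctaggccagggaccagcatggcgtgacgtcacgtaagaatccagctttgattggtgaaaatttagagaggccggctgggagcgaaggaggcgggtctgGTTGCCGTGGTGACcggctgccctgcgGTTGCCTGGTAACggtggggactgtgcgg
Rsph9: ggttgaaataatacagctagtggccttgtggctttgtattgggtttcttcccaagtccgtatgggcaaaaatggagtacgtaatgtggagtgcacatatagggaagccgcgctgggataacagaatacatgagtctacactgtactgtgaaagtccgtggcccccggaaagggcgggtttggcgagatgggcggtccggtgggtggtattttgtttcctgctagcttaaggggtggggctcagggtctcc
Ccdc39: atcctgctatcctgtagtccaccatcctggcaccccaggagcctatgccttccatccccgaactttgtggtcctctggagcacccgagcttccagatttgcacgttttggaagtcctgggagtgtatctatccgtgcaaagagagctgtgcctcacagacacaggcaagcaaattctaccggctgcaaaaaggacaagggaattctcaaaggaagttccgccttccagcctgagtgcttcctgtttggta

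Both X-boxes of Ift57 begin with the half-site, at 87 to 74 and 60 to 48 bases before the RefSeq start. The second of them lies inside the gene as GENCODE has it, which begins at chr16:49699233, and the first lies before that start. Ift57 had its highest library in section 1 of A or P in 7 of 8 embryos, and Rsph9 and Ccdc39, with no match in these windows, in 7 and 6. In GENCODE vM21 on GRCm38, Foxj1 lies at chr11:116330704-116335399 (minus strand), Rsph9 at chr17:46122035-46144216 (minus), Rfx3 at chr19:27761721-28011166 (minus) and Pkd2 at chr5:104459450-104505819 (plus), all protein-coding genes.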

How the data were processed

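The authors deposited 18 tables of FPKM, 1 per embryo. The submitters' processing notes name TopHat2 2.0.8b, Cufflinks 2.1.1 and the build mm10. The gene annotation behind them is one detail not given in the sources used here. Of 584 columns, 111 could not be tied to a sample and were not used, and 113 of 586 samples had no column. E6.5 embryo 6 was read from a table whose own name gives another stage.

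Differences of log2(FPKM + 1), with a pseudocount of 1, were taken within each embryo. They were tested with limma 3.58.1 under R 4.3.3, with a mean per stage, moderated variances (trend and robust options) and Benjamini-Hochberg adjustment over all genes tested at a threshold of 0.05. Genes entered a test if their mean over the libraries used was 1 FPKM or more at any stage. SE is the moderated standard error. The embryo was the replicate, and nothing in the labels ties embryos to litters, so p-values refer to these embryos alone. Moderation shares the spread between embryos across genes of like level. In distal against proximal P and in right against left, the members' p-values are those of a normal distribution. There the shared spread took the place of each gene's own, so these p-values do not measure how far embryos differed in that gene. As a check of the pairing, which comes from libraries of the same embryo, deviations of distal and proximal P from their stage means over 10017 genes correlated by 0.526 to 0.71 within an embryo at E7.5 and by at most 0.143 between embryos.

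Depth was estimated from the 5th percentile of FPKM times length in 2074 genes with 1 transcript of 1500 to 8000 bases, giving 2.10 to 9.64 M reads for the embryos' median libraries. The procedure was tested on simulated data. Genes named are the members, up to 4 of each list with the smallest p, node and germ layer genes, and the 10 genes most like Foxj1. The result of 1 further gene list is not reported here. The members and the gene lists were chosen with earlier results of these data known. Promoter sequences are from RefSeq and coordinates from GENCODE vM21. Other work was done in Python 3.11.15 (scipy 1.17.1, pandas 2.3.3, numpy 2.4.6, matplotlib 3.10.9). Alternatives were another pseudocount, other filters and scalings, moderation without the trend and robust options, no pairing, each embryo left out, low-quality libraries left out and other section limits.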

Additional observations from a re-analysis of the deposited data

Results flagged for a closer look

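Among the 25 members tested, 3 had an E7.5 embryo that stood apart from the others in distal P minus proximal P (log2), where chance gives about 1 in 20. These were Ccdc39 in embryo 4 (1.88), Ift27 in embryo 4 (1.08) and Ift57 in embryo 3 (-0.32).

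Rsph9 differed between stages: its distal minus proximal difference on the P side was lower at E7.5 than at E7.0 by -2.64 ± 0.73 (log2, SE, limma, adjusted p = 0.046, 0.689% of all genes called). The estimates were 3.24 at E7.0, higher in 2 of 2 embryos, and 0.60 at E7.5, higher in 3 of 4. The exception, E7.5 embryo 3, held 71.4 FPKM of Rsph9 in section 1 of A, which this comparison does not use. The change between stages was not recomputed under the alternatives.

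Signal also appeared in libraries that no test above uses, section 1 of A in E7.5 embryos 1 and 2, which had no usable P library. Foxj1 stood there at 247 and 90.9 FPKM, Rsph9 at 179 and 60.1 FPKM, Rsph1 at 113.0 and 46.2 FPKM and Rsph4a at 28.7 and 7.44 FPKM, each above what 3 reads would give.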

How the results depend on the processing

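The number of members called was recomputed under each alternative, and no called member of either distal P comparison changed direction in an alternative that tested it. Rsph4a was not tested in some of them. On the P side, distal against proximal, the 6 calls became 2 with a pseudocount of 0.1, 0 with a filter at 0.1 FPKM, without a filter and with equal sums, 10 without trend and robust moderation, 3 with no replicate block (unpaired embryos), 0 with E7.5 embryos alone, 2 with section 1 left out (chosen after seeing the data) and 1 to 8 with 1 embryo left out. Calls among all genes tested there went from 443 to 122 with that pseudocount, and to 0 with either lower filter or equal sums. They were 523 without trend and robust moderation, 141 unpaired and 45 with E7.5 embryos alone. Without section 1 they were 86, and with 1 embryo left out 82 to 945. The estimate of Foxj1 ran from 1.39 (E7.5 embryos alone) to 4.49 (pseudocount 0.1). Equal sums moved the median of all genes from -0.17 to 0.01 and Foxj1 from 2.43 to 2.55. For distal P against the rest of the embryo the 10 calls became 5 with a pseudocount of 0.1, 0 with either lower filter, with equal sums, with equal medians and with E7.5 embryos alone, 16 without trend and robust moderation, 7 in the unpaired fit, 4 with sections 1 to 3 as distal, 2 without section 1, 5 with the mean of region means and 0 to 21 with 1 embryo left out. Distal against proximal endoderm gave 0 to 3 calls with 1 embryo left out (1 without E7.0 embryo 1 and 3 without E7.0 embryo 2) and 0 otherwise. Endoderm against P had 20 calls, 17 to 22 under the other alternatives and 11 when unpaired. Mesoderm against P went from 15 to 0 with a pseudocount of 0.1, with no filter and unpaired, to 1 with equal sums and with equal medians, and to 0 to 16 with 1 embryo left out (0 without E7.5 embryo 5, 9 without embryo 6). The 1 call of P against A became 0 with a pseudocount of 0.1 and unpaired, 2 without trend and robust moderation or without low-quality libraries, and 0 to 3 with 1 embryo left out, 0 without E7.0 embryo 1, E7.5 embryo 3 or E7.5 embryo 5. Right against left stayed at 0, and could not be fitted without either E7.0 embryo. Low FPKM, at a few reads per gene, limits all statements on Rfx2, Dnali1, Rsph4a and Rsph6a.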
